A study of Homo sapiens with 15 samples.

Results

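The genes described here are the zinc finger genes of human chromosome 19 that carry a ZNF symbol. They were taken as all protein-coding genes of GENCODE release v29 on chromosome 19 whose symbol is ZNF followed by a number, and were matched to the expression tables by Ensembl gene identifier. This gave 249 genes of the 58735 listed. Their level was high enough for a test in 176 cases, and the other 73 stayed under the limit of 0.5 FPKM in at least 3 libraries. FPKM is the number of sequenced fragments scaled to exon length and to library size, so levels can be compared between genes of different length.

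The study asked which genes of supporting cells alter the drug response of cancer cells grown beside them, and it sequenced RNA of HEK293T cells, a human embryonic kidney line, after single genes were disrupted with Cas9. The 5 groups were Non-target (a guide with no target gene), and C9orf89-CKO, RHBDD2-CKO, MLPH-CKO and MAGI2-CKO, with 3 libraries each. All 5 carried the lentiviral lentiCRISPRv2 vector with Cas9 and had been selected with puromycin, and each group, Non-target included, was grown from a single cell by limiting dilution and sampled as 3 wells. A difference between groups is therefore a difference between clones, the disrupted gene and the clone cannot be told apart, and p-values measure only the spread between wells.

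The targeted genes gave a limited check of the labels. CARD19, the current symbol of C9orf89, read 5.70, 7.71 and 6.27 FPKM in Non-target and 4.34, 4.27 and 4.34 FPKM in C9orf89-CKO. RHBDD2 read 27.4, 38.1 and 34.9 FPKM in Non-target and 11.2, 13.5 and 12.4 FPKM in RHBDD2-CKO. Both genes were thus lower in their own clone, but neither was low there alone. RHBDD2 was also low in MAGI2-CKO, at 11.7, 13.8 and 16 FPKM, and CARD19 in RHBDD2-CKO, at 4.52, 5.17 and 4.69 FPKM. For CARD19 the log2 fold change against Non-target was -0.58 in C9orf89-CKO (SE 0.1, adjusted p = 0.000977 by limma) and -0.44 in RHBDD2-CKO (SE 0.1, adjusted p = 0.00489), and the difference between these 2 clones was 0.15 (SE 0.1, adjusted p = 0.32). MAGI2 stayed under 0.13 FPKM in all libraries and MLPH had 0 fragments in all of them, so the transcript level could not check those 2 labels. A Cas9 cut does not have to lower the transcript. The epithelial keratin KRT18 and the intermediate filament VIM, known in HEK293T cells, averaged 13.1 and 45.2 FPKM in Non-target, and the leukocyte marker PTPRC was at 0 there. The neurofilament genes NEFL and NEFM, also known in this line, averaged 18.8 and 27.2 FPKM in Non-target but 0.984 and 1.34 in RHBDD2-CKO, and NEFM averaged 0.0274 in MAGI2-CKO. KRT8 averaged 5.09 FPKM in Non-target, 2.61 in C9orf89-CKO and 15.3 in MLPH-CKO, and PAX2 averaged 0.72 in Non-target. These 6 HEK293T genes summed to 63.6 to 71.3 FPKM per library in RHBDD2-CKO and to 102 to 175 FPKM in the other groups. A list of 5 myeloid genes summed to 0.0293 to 0.416 FPKM per library and a list of 7 mesenchymal genes to 3.09 to 5.86 FPKM.

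Libraries numbered 1 stood apart from the other libraries of their group. The mean chi-square per gene between replicates was 14.6 to 24.8 for pairs with library 1 and 2.40 to 6.54 for libraries 2 and 3. The counts of called genes, of genes that set a group apart, of opposite calls, by sub-cluster and of genes on or off were therefore also made without the 5 libraries numbered 1, and are given beside the main counts. With 2 libraries per group, no gene could pass the limit of 3 libraries through a single group there.

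Most of these genes encode proteins with a row of zinc fingers of the cysteine and histidine type, which bind DNA, and many also carry a KRAB domain. KRAB zinc finger proteins bind repeated sequences, above all retrotransposons, and recruit the corepressor TRIM28 and the histone methyltransferase SETDB1, which lay down repressive chromatin. The genes themselves arose by tandem duplication, lie in clusters on chromosome 19, and their own 3' ends are known to carry the same repressive mark, recruited in part by ZNF274.

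The unit that is repeated in these proteins is shown for 3 genes that are described below, because it is the feature that defines the family. The stretches are the coding bases of the first finger with the commonest spacing in the longest reading frame, from GENCODE v29 on GRCh38, and the capitals mark the codons of the 2 cysteines and the 2 histidines that hold the zinc ion. They lie at chr19:9529307-9529369 in ZNF426, chr19:58128829-58128891 in ZNF329 and chr19:23362283-23362345 in ZNF91, all on the minus strand.
ZNF426: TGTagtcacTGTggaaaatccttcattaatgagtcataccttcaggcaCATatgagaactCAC
ZNF329: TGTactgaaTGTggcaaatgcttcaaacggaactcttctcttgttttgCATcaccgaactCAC
ZNF91: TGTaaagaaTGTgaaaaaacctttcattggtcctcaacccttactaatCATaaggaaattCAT
A search of the longest reading frame for a cysteine, 2 residues, a cysteine, 12 residues, a histidine, 3 to 5 residues and a histidine found at least 1 finger in 246 of the 248 genes with a frame. The median was 12 fingers, and ZNF91 had 31.

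Promoter sequence is shown for 4 genes with different patterns. ZNF426 was silent in a single clone, ZNF528 was expressed in a single clone, and ZNF700 and ZNF681 were silent in the same 3 clones. The bases are those before the RefSeq start on GRCh38, on the strand of the gene, with exons of other genes left out, and the capitals mark CG, the pair of bases that is methylated in human DNA and reads the same on both strands.
ZNF426: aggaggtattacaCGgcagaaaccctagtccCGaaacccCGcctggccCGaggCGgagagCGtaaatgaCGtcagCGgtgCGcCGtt
ZNF528: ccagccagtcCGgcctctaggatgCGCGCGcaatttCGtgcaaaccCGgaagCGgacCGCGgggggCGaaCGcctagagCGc
ZNF700: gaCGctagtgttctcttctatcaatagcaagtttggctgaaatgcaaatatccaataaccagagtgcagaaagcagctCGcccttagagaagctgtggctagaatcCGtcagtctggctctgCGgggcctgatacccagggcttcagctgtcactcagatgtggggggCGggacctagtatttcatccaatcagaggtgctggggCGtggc
ZNF681: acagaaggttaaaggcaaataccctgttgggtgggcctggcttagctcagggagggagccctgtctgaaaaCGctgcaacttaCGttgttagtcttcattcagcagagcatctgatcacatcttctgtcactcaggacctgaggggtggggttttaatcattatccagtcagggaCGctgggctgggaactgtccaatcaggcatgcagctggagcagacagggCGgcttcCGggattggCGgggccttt
They lie at chr19:9538646-9538732 (ZNF426, minus strand), chr19:52397767-52397848 (ZNF528, plus strand), chr19:11924857-11925067 (ZNF700, plus strand) and chr19:23758892-23759141 (ZNF681, minus strand). In the full window of 300 bases around the start, CG occurred 19, 27, 14 and 9 times, in that order. The median over the 217 genes with a RefSeq promoter was 20, and over 14904 protein-coding genes it was 22.

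The family as a whole was expressed at a low level, and the level differed between clones. The median FPKM of the 176 tested genes was 1.57, 1.37 and 1.54 in the 3 Non-target libraries. It was 1.04, 1.08 and 1.04 in C9orf89-CKO, 0.994, 0.887 and 0.914 in MAGI2-CKO, and 1.02, 0.978 and 0.947 in MLPH-CKO. In RHBDD2-CKO it was 2.14, 2.13 and 2.10. All libraries of the first 3 clones lay under all Non-target libraries, and all RHBDD2-CKO libraries lay over them. The median over all 16175 tested genes was 4.13 to 4.27 FPKM in the same 15 libraries. The share of all fragments that fell on the 249 genes followed the same order, with 0.219% to 0.228% in Non-target, 0.161% to 0.184% in the 3 clones and 0.299% to 0.310% in RHBDD2-CKO.

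**Figure D1:**
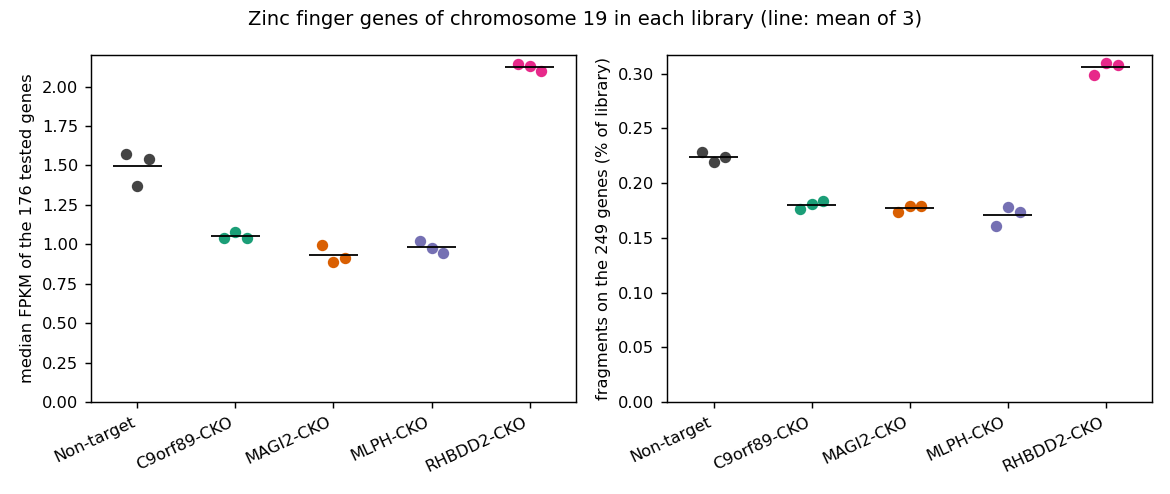
Median FPKM of the 176 tested genes (left) and percent of the fragments of a library on the 249 genes (right) for each of the 15 libraries, with points for libraries and lines for the mean of 3. RHBDD2-CKO lies over Non-target and the other 3 clones lie under it, with no overlap between them and Non-target in either measure.

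Tests were made with limma on log2(FPKM + 0.1) over all 16175 genes, and a gene was called at an adjusted p under 0.05. In C9orf89-CKO, 72 of the 176 genes were lower than in Non-target and 1 was higher, while 13.1% of all tested genes were lower and 12.9% higher. In MAGI2-CKO 102 were lower and 3 higher, against 19.1% and 17.0% of all tested genes. In MLPH-CKO 100 were lower and 1 higher, against 15.5% and 14.5%. RHBDD2-CKO went the other way, with 90 genes higher and 6 lower, against 17.4% and 16.7%. In either direction, 26.0%, 36.1%, 30.1% and 34.1% of all tested genes were called in the 4 clones. As shares of the 176 tested genes these were 40.9%, 58.0% and 56.8% lower in the first 3 clones and 51.1% higher in RHBDD2-CKO. The 4 comparisons share the 3 Non-target libraries.

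The change was broad and moderate in size. The median log2 fold change over the 176 genes reached 0.42 in RHBDD2-CKO, while MAGI2-CKO had -0.51, MLPH-CKO -0.49 and C9orf89-CKO -0.34. Over all tested genes it lay between -0.01 and 0.00. All 3 libraries lay below all 3 Non-target libraries for 89, 115 and 117 of the genes in the first 3 clones, against 20.4%, 24.4% and 21.0% of all tested genes. All 3 RHBDD2-CKO libraries lay above for 104 genes, against 22.7%. These counts and medians are over all 176 genes, so they include genes tested only because they are high in RHBDD2-CKO or Non-target. Of the 176 genes, 10 passed the limit on low values through a single group, 8 of them through RHBDD2-CKO and 2 through Non-target. For these, no library of another group reached 0.5 FPKM. ZNF880, ZNF382, ZNF571, ZNF585A, ZNF701 and ZNF493 are among genes with such libraries elsewhere, but too few to pass without RHBDD2-CKO. ZNF85 likewise needed Non-target. Such genes stay among the other 166, so that count removes this selection only in part. Among the other 166 genes, 66, 96 and 91 were lower in the first 3 clones and 84 were higher in RHBDD2-CKO. Without the libraries numbered 1, where 163 genes were tested, 52, 85 and 64 were lower and 70 were higher, against 17.7%, 22.2% and 21% of all 15471 genes of that fit lower and 20.2% higher. These shares of all genes were larger than with all libraries, while the counts of zinc finger genes were smaller.

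The same counts were made for the 2 nearest groups of genes. Among 221 tested ZNF genes on other chromosomes, 34, 49 and 66 were lower and 20, 30 and 19 higher in the C9orf89, MAGI2 and MLPH clones. In RHBDD2-CKO 55 of them were higher and 38 lower. Their medians were -0.02, -0.02, -0.17 and 0.04 in the 4 clones. Among 713 other protein-coding genes of chromosome 19, 92, 73 and 70 were lower and 77, 139 and 122 higher in the same 3 clones, and in RHBDD2-CKO 157 were lower and 46 higher. The medians of these were -0.08, 0.02, 0.04 and -0.13, so in RHBDD2-CKO the neighbours on the chromosome had a median under 0 where the zinc finger genes had 0.42. The difference between these lists was not tested.

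**Figure D2:**
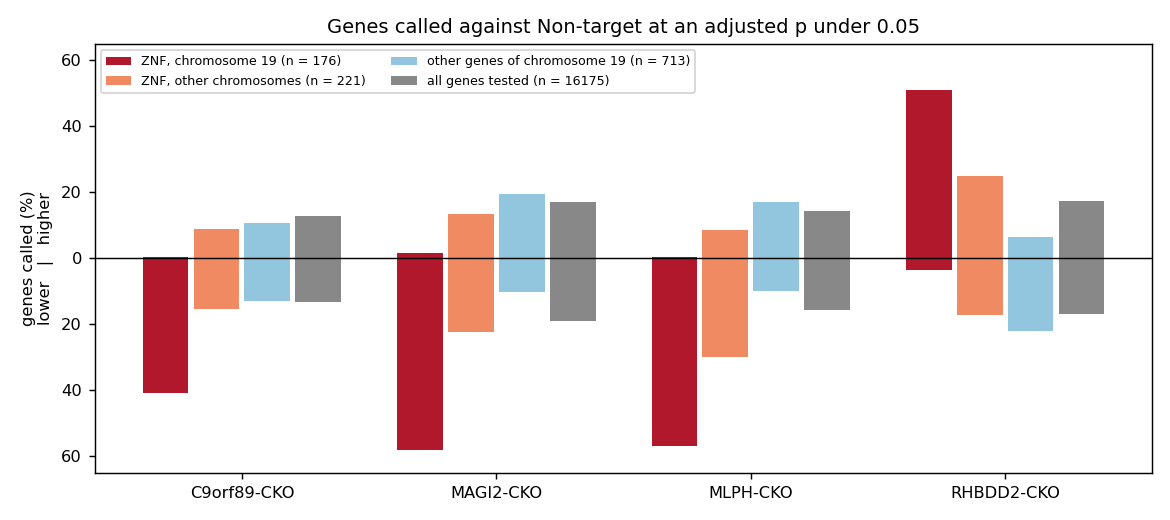
Percent of genes called higher (up) and lower (down) than in Non-target in each clone, for the chromosome 19 ZNF genes, the ZNF genes of other chromosomes, other genes of chromosome 19 and all genes tested. The tested chromosome 19 ZNF genes reach 40.9% to 58.0% lower in 3 clones and 51.1% higher in RHBDD2-CKO.

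Comparisons between clones take no difference from Non-target, although its libraries enter the filter and the estimate of the spread. RHBDD2-CKO was higher than C9orf89-CKO for 117 genes and lower for 3, with 14.3% and 15% of all tested genes. It was higher than MAGI2-CKO for 129 and lower for 5, with 21.5% and 20% of all tested genes, and higher than MLPH-CKO for 129 and lower for 3, with 18.7% and 18.4%. Among the 16030 genes of all kinds with libraries at 0.5 FPKM or more in more than 1 group, 14.1%, 21.4% and 18.5% were higher. Without the 10 genes that passed the limit through a single group, 109, 119 and 119 of 166 were higher. The 166 still hold genes that needed RHBDD2-CKO to pass, such as ZNF382 and ZNF880. The counts were 103, 116 and 109 of 163 without the libraries numbered 1, against 16.9%, 23.7% and 20.1% of all genes of that fit. The medians of the differences with all libraries were 0.91, 1.10 and 1.01 on the log2 scale. The 3 clones with low levels differed less among themselves, and so they did over all tested genes. MAGI2-CKO was lower than C9orf89-CKO for 29 genes and higher for 5, against 12.7% and 9.76% of all tested genes. MLPH-CKO was lower than C9orf89-CKO for 14 and higher for 7, against 7.61% and 6.63%. MLPH-CKO was higher than MAGI2-CKO for 15 and lower for 8, against 11.8% and 9.4%. In either direction, 19.3%, 11.9% and 13.1% of the 176 genes were called in these 3 pairs, under the 22.5%, 14.2% and 21.2% of all tested genes. Against RHBDD2-CKO, 29.3%, 41.6% and 37.0% of all tested genes were called in the C9orf89, MAGI2 and MLPH clones. In the same order these 3 pairs had 26 lower and 8 higher, 15 lower and 4 higher, and 17 higher and 11 lower without the libraries numbered 1. The shares of all genes were then 17.4% and 15.2%, 11.3% and 9.36%, and 13.9% and 13%.

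A gene was taken to set a group apart if its tests against all 4 other groups passed with a common sign. RHBDD2-CKO was set apart by 84 of the 176 genes, all of them higher, against 5.61% of all tested genes, and by 0 lower genes, against 5.88%. Of the 84, 6 passed the limit on low values through RHBDD2-CKO alone, and the other 78 of 166 stand against 5.45%. The 78 still hold genes that would not have passed without RHBDD2-CKO, among them ZNF880, ZNF382, ZNF571, ZNF585A and ZNF701. When the libraries numbered 1 were left out there were 67 higher of 163, against 5.75%, and 2 lower, ZNF738 and ZNF784, against 7.49%. MAGI2-CKO was set apart by 7 lower genes (3.98%, background 4.84%), MLPH-CKO by 5 lower genes (2.84%, background 2.1%) and C9orf89-CKO by 1 lower gene (0.568%, background 0.828%). Non-target was set apart by 3 higher genes (1.7%, background 3.26%) and 0 lower genes (background 3.39%). Of these shares only that of MLPH-CKO was over its background, and it was near it. The 3 genes of Non-target were ZNF441, ZNF91 and ZNF160. ZNF441 and ZNF91 passed the limit on low values through Non-target alone. ZNF160 averaged 0.432 FPKM in RHBDD2-CKO, 0.359 in C9orf89-CKO and 0 in MAGI2-CKO and MLPH-CKO, so it also needed Non-target to pass. The count of these 3 genes is therefore no support, and without Non-target library 1, 2 or 3 it became 1, 0 and 0. The 5 genes of MLPH-CKO were ZNF426, ZNF561, ZNF714, ZNF615 and ZNF304. In the fit without the libraries numbered 1, 7 lower genes set MAGI2-CKO apart (background 5.7%), 6 MLPH-CKO (2.75%), 1 C9orf89-CKO (1.36%) and 0 genes Non-target (5.08% higher, 4.32% lower). No gene of the family was higher in MAGI2-CKO, MLPH-CKO or C9orf89-CKO than in all other groups by limma, and the share of all tested genes was 1.92%, 0.785% and 0.649%.

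Along the chromosome, 235 of the 249 genes lay in 10 sub-clusters of at least 5 genes with gaps of at most 500 kb, and 14 were scattered. Positions are those of GRCh38. The counts in RHBDD2-CKO are given by sub-cluster, beside the 17.4% of all tested genes that were higher and 16.7% that were lower. In sub-cluster 6 (ZNF565 to ZNF573, chr19:36182060-37817300) 20 of 23 tested genes were higher and none lower, with a median log2 fold change of 0.76. In sub-cluster 7 (ZNF575 to ZNF180, chr19:43525497-44500524) 17 of 19 were higher, with a median of 0.97. Sub-cluster 10 (ZNF264 to ZNF446, chr19:57191500-58481230), which lies near the end of the long arm, had 23 of 36 higher and a median of 0.64. Sub-cluster 8 (ZNF175 to ZNF331, chr19:51571298-53580269) had 14 of 26 higher and 1 lower, and sub-cluster 2 (ZNF414 to ZNF846, chr19:8509678-9793180) had 7 of 9 higher. Genes that passed the limit through RHBDD2-CKO alone were 2 in sub-cluster 7 and 4 in sub-cluster 8, and without them 15 of 17 and 11 of 22 were higher, with medians of 0.88 and 0.45. Of the genes higher in sub-cluster 6, ZNF382, ZNF571 and ZNF585A would not have passed the limit without RHBDD2-CKO. The same holds for ZNF880 and ZNF701, which stay among the 22 of sub-cluster 8. Without the libraries numbered 1, where 20.2% of all genes were higher and 22.9% lower, 15 of 21 were higher in sub-cluster 6, 13 of 17 in sub-cluster 7, 21 of 36 in sub-cluster 10, 7 of 22 in sub-cluster 8 and 7 of 9 in sub-cluster 2, and the only lower gene among them was 1 of sub-cluster 7.

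In the other sub-clusters a smaller share of the tested genes was called higher in RHBDD2-CKO. Sub-cluster 3 (ZNF653 to ZNF791, chr19:11483427-12640098) had 0 of 11 tested genes higher and 1 lower, with a median of -0.07. Sub-cluster 4 (ZNF101 to ZNF254, chr19:19668796-24129961), which spans the part next to the centromere, had 2 of 17 higher and 1 lower, with a median of 0.22. Sub-cluster 9 (ZNF628 to ZNF835, chr19:55476332-56671783) had 3 of 13 higher and 2 lower, with a median of -0.12. Its 5 calls are near the 34.1% of all tested genes called in either direction. Sub-cluster 1 (ZNF554 to ZNF77, chr19:2819874-2944971) had 0 of 4 higher and 1 lower, and sub-cluster 5 (ZNF302 to ZNF792, chr19:34677639-34964049) had 1 of 5 higher. The lower genes of sub-clusters 3 and 4 were ZNF441 and ZNF91, which passed the limit through Non-target alone, and without the genes of a single group both counts were 0 and the median of sub-cluster 3 was 0.02. Sub-cluster 9 then had 2 of 12 higher and 2 lower. When the libraries numbered 1 were left out, sub-cluster 3 had 1 of 10 higher and 1 lower, sub-cluster 4 had 2 of 14 higher and 1 lower, sub-cluster 9 had 1 of 12 higher and 3 lower, sub-cluster 1 had 0 calls in 4 genes by limma and sub-cluster 5 had 1 of 5 higher. Whether the sub-clusters differ was not tested.

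In the 3 clones with low levels, most called genes were lower, where 13.1%, 19.1% and 15.5% of all tested genes were lower in the C9orf89, MAGI2 and MLPH clones. In MAGI2-CKO, 8 of 11 were lower in sub-cluster 3, 11 of 17 in sub-cluster 4, 14 of 23 in sub-cluster 6, 15 of 19 in sub-cluster 7, 18 of 26 in sub-cluster 8 and 24 of 36 in sub-cluster 10. In MLPH-CKO the same sub-clusters had 7, 11, 15, 13, 13 and 27 lower genes. C9orf89-CKO had 5, 7, 12, 7, 14 and 19. Without the genes of a single group the counts were 7, 9, 14, 14, 16 and 24 in MAGI2-CKO, 6, 9, 15, 11, 10 and 27 in MLPH-CKO and 4, 5, 12, 7, 12 and 19 in C9orf89-CKO. They were 7, 7, 11, 10, 16 and 23 in MAGI2-CKO, 4, 6, 8, 8, 7 and 22 in MLPH-CKO and 4, 5, 8, 5, 7 and 14 in C9orf89-CKO without the libraries numbered 1, where 22.2%, 21% and 17.7% of all genes were lower. Sub-clusters 1, 2 and 5 had 0, 3 and 1 lower genes in C9orf89-CKO, 0, 7 and 2 in MAGI2-CKO and 2, 6 and 1 in MLPH-CKO. Without the libraries numbered 1 they had 0, 3 and 1, then 0, 6 and 2, then 0, 4 and 1. Sub-cluster 9 had 4, 2 and 4 of 13 lower in the C9orf89, MAGI2 and MLPH clones and 1 higher in MAGI2-CKO, with medians of -0.31, -0.08 and -0.18. Without the libraries numbered 1 it had 5, 2 and 3 of 12 lower, with 2 higher in MAGI2-CKO and 1 higher in MLPH-CKO. Its genes include ZNF579, ZNF580 and ZNF581, which are among the most abundant of the family. The scattered genes had medians between -0.04 and 0.04 in the 4 clones.

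Opposite calls in a pair of clones were counted where the clones also differed by the test. Between RHBDD2-CKO and the C9orf89, MAGI2 or MLPH clone there were 42, 63 and 65 such genes, all higher in RHBDD2-CKO, against 2.29%, 4.43% and 3.49% of all tested genes. Without the genes that passed the limit through a single group there were 40, 61 and 60 of 166, against 2.25%, 4.38% and 3.47%. The 166 still hold genes that would not have passed without RHBDD2-CKO, such as ZNF382 and ZNF880, so these counts remove the selection only in part. The counts were 21, 43 and 34 of 163 without the libraries numbered 1, against 2.87%, 5.4% and 3.87%, and all but 1 of the 43 were higher in RHBDD2-CKO. Among the other 3 pairs of clones there were 0 such genes by limma, against 1.09% (C9orf89 and MAGI2), 0.501% (C9orf89 and MLPH) and 0.977% (MAGI2 and MLPH) of all tested genes. In the fit without the libraries numbered 1, ZNF580 was such a gene in the first 2 of these pairs, where 1.82% and 0.821% of all genes were.

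**Figure D3:**
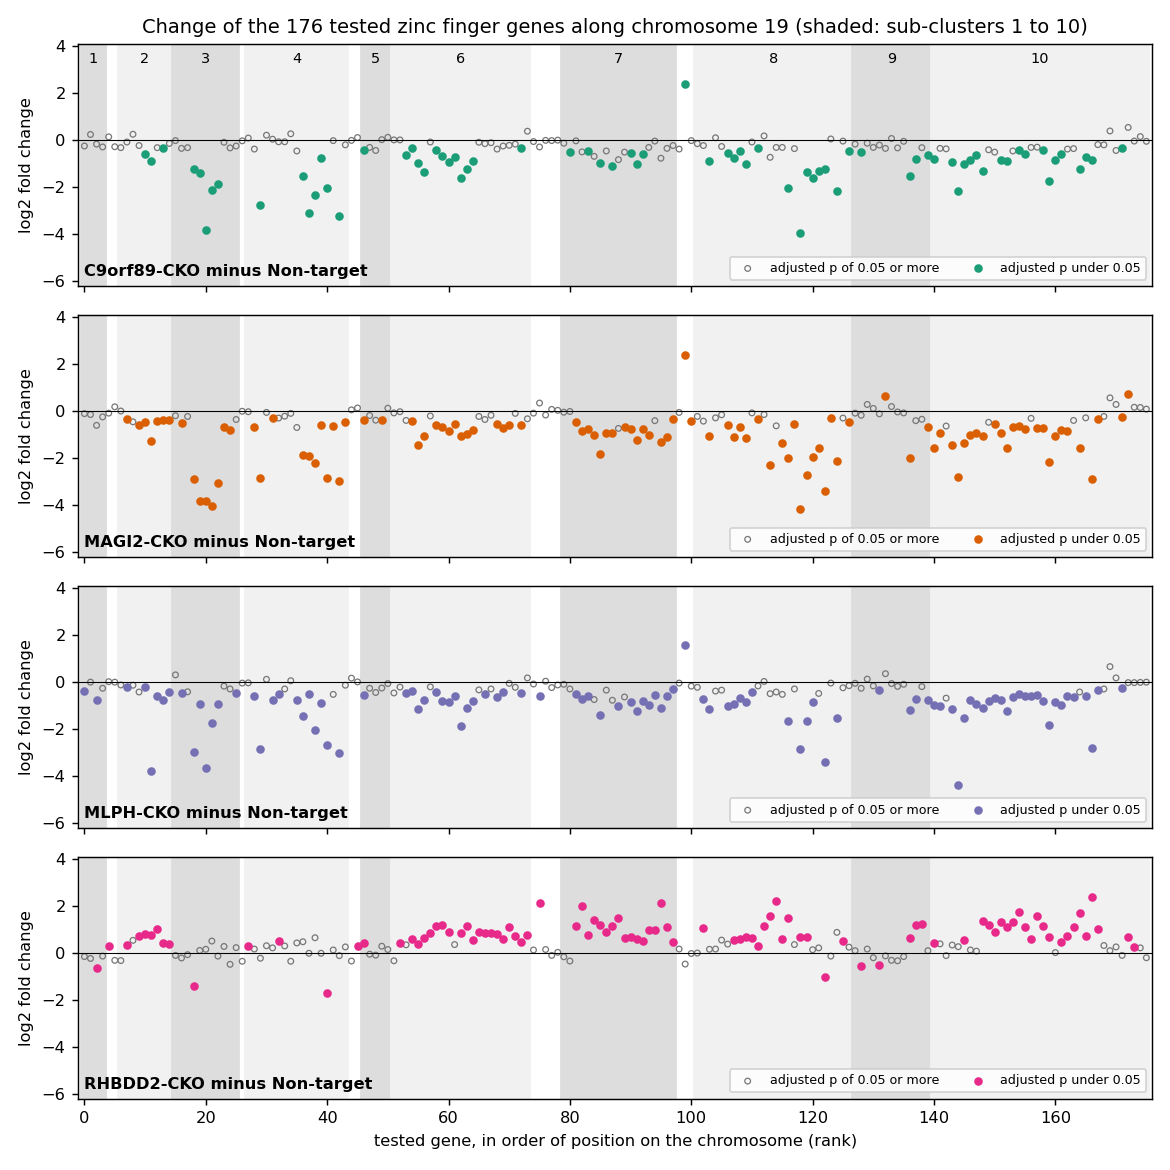
Log2 fold change of the 176 tested genes against Non-target, in order of position on chromosome 19 (rank on the x axis), with 1 panel per clone, filled points for an adjusted p under 0.05 and shading for sub-clusters 1 to 10. Filled points lie mostly under 0 in the upper 3 panels and over 0 in the RHBDD2-CKO panel, where 20 of 23, 17 of 19 and 23 of 36 points are filled and over 0 in sub-clusters 6, 7 and 10, against 0 of 11 and 2 of 17 in sub-clusters 3 and 4. These counts include genes tested only because they are high in RHBDD2-CKO, among them ZNF382, ZNF571 and ZNF585A in sub-cluster 6 and ZNF284 and ZNF233 in sub-cluster 7.

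Of 26 other tested genes that lie inside the sub-clusters, 8 have symbols of other zinc finger families (ZFP, ZSCAN, ZIK, HKR). Of these 8, 4 were lower in MLPH-CKO, 6 in MAGI2-CKO and 6 in C9orf89-CKO, and 5 were higher in RHBDD2-CKO, where the median was 0.58. Of the 8, ZIK1 passed the limit through RHBDD2-CKO alone, and among the other 7 the counts were 3, 5, 5 and 4. These 7 include ZSCAN18, which also needed RHBDD2-CKO to pass. It read 0.675, 0.498 and 0.569 FPKM in Non-target and at most 0.289 in the MLPH, MAGI2 and C9orf89 clones. Over all tested genes 15.5%, 19.1% and 13.1% were lower in these 3 clones and 17.4% were higher in RHBDD2-CKO. The remaining 18 genes include the splicing factor gene U2AF2. Of the 18, 5, 3 and 4 were lower and none higher in the first 3 clones, and in RHBDD2-CKO 7 were lower and none higher, with a median of -0.21, where 16.7% of all tested genes were lower. With 18 genes, 5, 3 and 4 stand against 13.1%, 19.1% and 15.5% in the C9orf89, MAGI2 and MLPH clones.

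Expression of single genes was then read as on or off. A gene was on in a group at 0.5 FPKM or more in all 3 libraries and off under 0.1 FPKM in all 3. Non-target had 153 of the 249 genes on and 47 off. The 3 clones with low levels had 114 to 118 on and 74 to 84 off, and RHBDD2-CKO had 169 on and 53 off. In all 5 groups 104 genes were on, and 45 were off in all 5. On in at least 1 group and off in at least 1 other were 19 genes, or 7.63% of the family, against 0.802% of all protein-coding genes. There were 21 without the libraries numbered 1, against 0.977%, and the groups had 155, 119, 114, 121 and 169 genes on (Non-target, then the C9orf89, MAGI2, MLPH and RHBDD2 clones). Among genes on in at least 1 group the share with all libraries was 10.9% of the family, 1.32% of protein-coding genes, 1.38% of ZNF genes on other chromosomes and 0.730% of the other genes of chromosome 19. Of the 19 genes, 17 were off in MAGI2-CKO, 13 in MLPH-CKO, 8 in C9orf89-CKO, 1 in Non-target and 0 in RHBDD2-CKO.

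**Figure D4:**
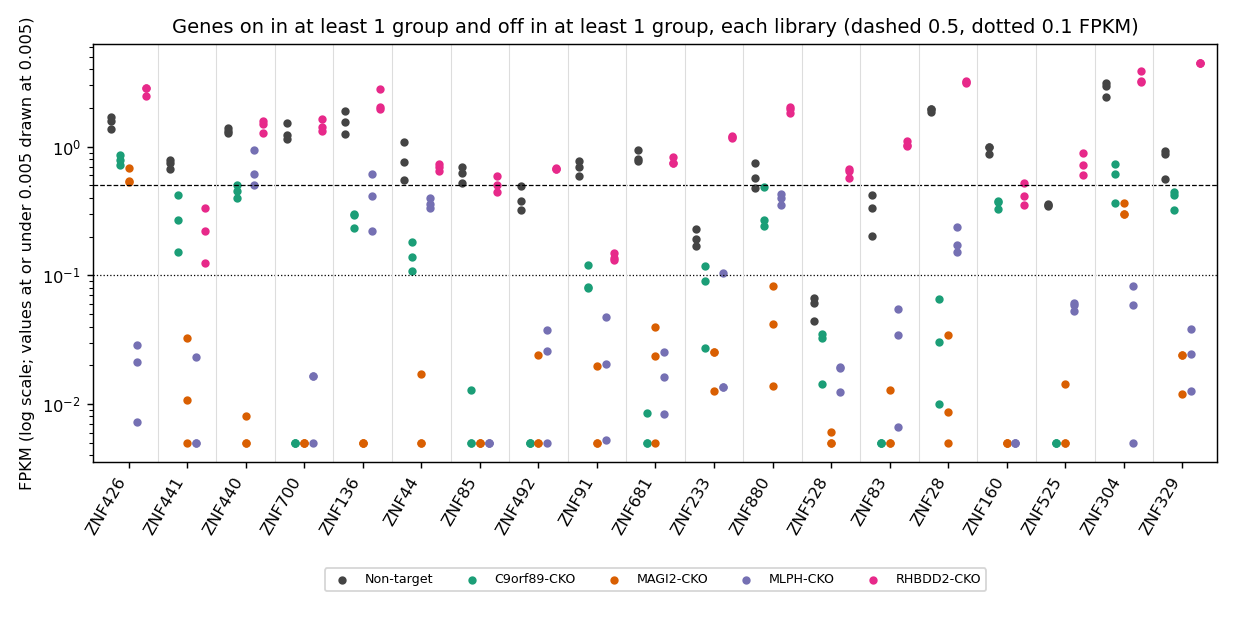
FPKM on a log axis of the 19 genes that were on in at least 1 group and off in at least 1 other, with 1 point per library, colours for groups, and lines at 0.5 and 0.1 FPKM. Values at or under 0.005 are drawn at 0.005, and ZNF426 and ZNF528 are the genes with a single group on the other side of both lines.

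A single gene, or 0.402% of the family, was off in 1 clone and on in the other 4 groups, against 0.0752% of protein-coding genes, and with on from 1 FPKM there were 0. ZNF426 (ENSG00000130818, chr19:9523224-9538645, minus strand, sub-cluster 2) read 1.70, 1.38 and 1.59 FPKM in Non-target. It read 0.787, 0.721 and 0.867 in C9orf89-CKO, 0.539, 0.683 and 0.530 in MAGI2-CKO and 2.84, 2.86 and 2.47 in RHBDD2-CKO. In MLPH-CKO it read 0.0290, 0.0211 and 0.00723, which is 1 to 4 fragments per library against 161 to 210 in Non-target. MLPH-CKO was the lowest group by far and RHBDD2-CKO the highest, with no overlap between any of them and Non-target. The fold change in MLPH-CKO was -3.80 on the log2 scale (SE 0.15, adjusted p = 3.94e-09). The next tested gene on the chromosome, ZNF121, averaged 4.5 FPKM in Non-target and 2.97 in MLPH-CKO, a fold change of -0.58 (SE 0.14, adjusted p = 0.00783). The promoter printed above is that of ZNF426, with CG 19 times in its window.

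The reverse pattern was found in ZNF528 (ENSG00000167555, chr19:52397849-52418412, plus strand, sub-cluster 8), which was on in RHBDD2-CKO and off in the other 4 groups. It was again the single gene of its kind, against 0.0752% of protein-coding genes, and with off under 0.05 FPKM or on from 1 FPKM there were 0. It read 0.645, 0.671 and 0.569 FPKM in RHBDD2-CKO, from 79 to 100 fragments. In Non-target it read 0.0438, 0.0606 and 0.0668, and in the other 3 clones it stayed under 0.04. The gene passed the limit on low values through RHBDD2-CKO alone, so its log2 fold change of 2.21 (SE 0.39) is given as a description with no test. The neighbour before it on the chromosome, ZNF880 (chr19:52369917-52385795), was off in MAGI2-CKO alone, at 0.0416, 0.0832 and 0.0138 FPKM, and on in RHBDD2-CKO, at 2.03, 1.84 and 1.97. In Non-target ZNF880 read 0.754, 0.573 and 0.475 FPKM. ZNF534 and ZNF578, the next genes on the other side of ZNF528, were at 0 in Non-target and at no more than 0.00625 FPKM on average in RHBDD2-CKO.

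Genes of sub-cluster 3 were lost in MAGI2-CKO. ZNF136 (ENSG00000196646, chr19:12163064-12189881, plus strand) read 1.56, 1.25 and 1.89 FPKM in Non-target and 0 in all 3 MAGI2-CKO libraries. With a floor of 3 fragments over the group, that is at least 165-fold lower. It read 0.301, 0.297 and 0.232 in C9orf89-CKO, 0.222, 0.411 and 0.613 in MLPH-CKO and 2.05, 2.81 and 1.95 in RHBDD2-CKO. ZNF136 was thus lowered in all of the first 3 clones, and only in MAGI2-CKO was it off. ZNF440 averaged 1.33 ± 0.0658 FPKM (SD, n = 3) in Non-target, 0.00267 in MAGI2-CKO from 1 fragment in all, 0.685 ± 0.229 in MLPH-CKO and 1.45 ± 0.156 in RHBDD2-CKO. In C9orf89-CKO ZNF440 averaged 0.452 ± 0.0498. ZNF44 averaged 0.797 ± 0.265 in Non-target, 0.144 in C9orf89-CKO, 0.366 in MLPH-CKO, 0.694 in RHBDD2-CKO and 0.00567 in MAGI2-CKO. Of the stretches of 31 bases in ZNF440, 25% are shared with transcripts of other genes, so part of its reads could not be assigned with certainty.

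ZNF700 (ENSG00000196757, chr19:11925068-11950773, plus strand) lies between ZNF440 and ZNF136 and had another pattern. It read 1.52, 1.23 and 1.15 FPKM in Non-target and 1.43, 1.32 and 1.63 in RHBDD2-CKO. In C9orf89-CKO and MAGI2-CKO it read 0 in all 6 libraries, and in MLPH-CKO 0.0165, 0 and 0.0164. The gene was off in 3 clones and at the Non-target level in RHBDD2-CKO, where the test gave 0.16 (SE 0.26, adjusted p = 0.677). Against the floor of 3 fragments it was at least 73.6-fold lower in C9orf89-CKO and at least 83.8-fold lower in MAGI2-CKO. Its shared stretches amount to 34.0%, and 17.4% of its exon bases overlap another gene on the same strand. ZNF441, next to these genes, was on in Non-target alone, at 0.748, 0.789 and 0.672 FPKM. It averaged 0.281 in C9orf89-CKO, 0.227 in RHBDD2-CKO, 0.0144 in MAGI2-CKO and 0.00766 in MLPH-CKO, and it passed the limit on low values through Non-target alone.

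Sub-cluster 4 held 4 of the switching genes, of which ZNF681, ZNF85 and ZNF492 were off in all 3 clones with low levels. ZNF681 read 0.949, 0.805 and 0.781 FPKM in Non-target and 0.746, 0.836 and 0.747 in RHBDD2-CKO. Its 9 libraries of the other clones all read under 0.04. ZNF85, known as a transcriptional repressor, averaged 0.615 ± 0.0841 in Non-target, 0.514 ± 0.0751 in RHBDD2-CKO, 0.00428 in C9orf89-CKO and 0 in MAGI2-CKO and MLPH-CKO. These 2 genes stood at similar levels in Non-target and RHBDD2-CKO. ZNF492 averaged 0.4 ± 0.0886 in Non-target and 0.674 ± 0.00777 in RHBDD2-CKO. ZNF492 shares 45.1% of its stretches with other transcripts.

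ZNF91, which is known to repress SVA retrotransposons, was highest in Non-target. It read 0.773, 0.596 and 0.696 FPKM there and 0.132, 0.148 and 0.136 in RHBDD2-CKO. In C9orf89-CKO it read 0.0816, 0.0801 and 0.121, in MAGI2-CKO 0.00495, 0.0198 and 0.00493, and in MLPH-CKO 0.0474, 0.0204 and 0.00525. All 4 clones lay below all Non-target libraries, and RHBDD2-CKO lay above the other 3 clones. The fold changes were -2.02, -2.84, -2.67 and -1.72 in the C9orf89, MAGI2, MLPH and RHBDD2 clones (SE 0.34 each). ZNF91 passed the limit on low values through Non-target alone, so these are a description with no test. ZNF160 of sub-cluster 8 had the same order, at 0.957 ± 0.0617 FPKM in Non-target, 0.432 ± 0.0880 in RHBDD2-CKO, 0.359 ± 0.0289 in C9orf89-CKO and 0 in all libraries of MAGI2-CKO and MLPH-CKO.

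ZNF28 of sub-cluster 8 (ENSG00000198538, chr19:52797409-52857600, minus strand) had the largest fall in MAGI2-CKO among genes with a mean of at least 1 FPKM. It read 1.87, 1.98 and 1.97 FPKM in Non-target, 0.0304, 0.0651 and 0.01 in C9orf89-CKO, 0.0345, 0.00863 and 0 in MAGI2-CKO, 0.238, 0.151 and 0.173 in MLPH-CKO and 3.27, 3.14 and 3.17 in RHBDD2-CKO. The groups did not overlap Non-target in any clone, and RHBDD2-CKO was the highest. The fold changes were -3.93, -4.17, -2.84 and 0.69 (SE 0.21 each), and the last had an adjusted p of 0.0236, which became 0.15 without the libraries numbered 1. ZNF28 shares 25.9% of its stretches. ZNF83 and ZNF525 of the same sub-cluster were off in the C9orf89, MAGI2 and MLPH clones, and averaged 1.05 ± 0.0462 and 0.738 ± 0.149 FPKM in RHBDD2-CKO against 0.318 ± 0.110 and 0.351 ± 0.00510 in Non-target. Both passed the limit on low values through RHBDD2-CKO alone, as did ZNF492 of sub-cluster 4.

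In sub-cluster 10, ZNF304 (ENSG00000131845, chr19:57351307-57359898, plus strand) was off in MLPH-CKO alone. It read 2.96, 2.45 and 3.12 FPKM in Non-target, 0.618, 0.735 and 0.365 in C9orf89-CKO, 0.302, 0.302 and 0.367 in MAGI2-CKO and 0.0832, 0 and 0.0592 in MLPH-CKO. RHBDD2-CKO read 3.85, 3.27 and 3.21. MLPH-CKO lay below all other libraries, while the C9orf89 and MAGI2 clones overlapped each other below Non-target, and the fold change in MLPH-CKO was -4.36 (SE 0.25, adjusted p = 8.85e-08). ZNF543, the tested gene before it, averaged 3.60, 1.84, 1.28, 1.57 and 4.59 FPKM in Non-target and in the C9orf89, MAGI2, MLPH and RHBDD2 clones.

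ZNF329 (ENSG00000181894, chr19:58126252-58155110, minus strand) had the widest range between clones among the genes called in both directions. It read 0.564, 0.929 and 0.873 FPKM in Non-target and 4.47, 4.48 and 4.46 in RHBDD2-CKO. In C9orf89-CKO it read 0.422, 0.322 and 0.446, in MAGI2-CKO 0.0239, 0.0239 and 0.0119, and in MLPH-CKO 0.0381, 0.0246 and 0.0127. The gene was raised in RHBDD2-CKO and off in 2 other clones, with no overlap with Non-target anywhere. The fold changes were 2.39 in RHBDD2-CKO (SE 0.21, adjusted p = 3.99e-06), -2.87 in MAGI2-CKO and -2.81 in MLPH-CKO. Next to it lies ZNF274, which is known to bind the 3' ends of zinc finger genes and to recruit SETDB1 there. ZNF274 read 2.43, 2.85 and 2.44 FPKM in Non-target and 5.46, 4.96 and 5.49 in RHBDD2-CKO, a fold change of 1.02 (SE 0.09, adjusted p = 4e-06). It fell by 0.32 in MAGI2-CKO and by 0.34 in MLPH-CKO on the log2 scale, with adjusted p = 0.0146 and 0.0132.

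Sub-cluster 7 held 2 named genes with higher values in RHBDD2-CKO. ZNF404 read 0.804, 0.703 and 0.621 FPKM in Non-target and 3.35, 3.26 and 2.65 in RHBDD2-CKO, a fold change of 1.98 (SE 0.25, adjusted p = 6.51e-05). ZNF233 read 0.231, 0.191 and 0.169 in Non-target and 1.21, 1.20 and 1.17 in RHBDD2-CKO, a fold change of 2.13 (SE 0.35). ZNF233 passed the limit on low values through RHBDD2-CKO alone, so no test is given. ZNF233 was on in RHBDD2-CKO alone and off in MAGI2-CKO. Exons of ZNF404 overlap another gene of the same strand over 17.6% of their bases.

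Some genes did not share the common direction. With all libraries, ZNF114 (ENSG00000178150, chr19:48270102-48287608, plus strand), a scattered gene, was the only one of the family called higher in C9orf89-CKO and in MLPH-CKO. Without the libraries numbered 1, sub-clusters 9 and 10 each held 1 gene called higher in MLPH-CKO. The following values are those of ZNF114. It read 0.520, 0.345 and 0.533 FPKM in Non-target, 3.12, 3.01 and 2.39 in C9orf89-CKO, 3.55, 2.58 and 2.60 in MAGI2-CKO and 2.16, 1.56 and 1.11 in MLPH-CKO. In RHBDD2-CKO it read 0.405, 0.118 and 0.493. It was thus above all Non-target libraries in the 3 clones where the family was low, and overlapped Non-target in RHBDD2-CKO. The fold changes were 2.38, 2.41 and 1.57 (SE 0.33 each, adjusted p from 0.000106 to 0.00335). The 3 genes higher in MAGI2-CKO were ZNF114, ZNF580 and ZNF132, the last named after its values were seen. ZNF580 rose in MAGI2-CKO, from 14.2, 20.8 and 16.6 FPKM to 21.5, 29.5 and 31.2, a fold change of 0.67 (SE 0.17, adjusted p = 0.00797). It shares 15.1% of its exon bases with ZNF581 on the same strand.

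ZNF100 of sub-cluster 4 was the single gene that set C9orf89-CKO apart. It read 2.74, 2.42 and 2.57 FPKM in Non-target and 0.247, 0.227 and 0.182 in C9orf89-CKO. In MAGI2-CKO it read 0.802, 0.538 and 0.558, in MLPH-CKO 1.76, 2.14 and 1.55 and in RHBDD2-CKO 2.58, 2.45 and 2.67. The C9orf89-CKO libraries were the lowest and RHBDD2-CKO overlapped Non-target. The fold changes were -3.08, -1.89, -0.49 and -0.01 (SE 0.15 each).

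The most abundant genes of the family are given here, together with ZNF579 and ZNF57. ZNF580 also belongs to the most abundant genes, and its rise in MAGI2-CKO is given above. Whether abundant genes changed less than the other genes of the family was not tested. ZNF146, which encodes a protein made almost only of fingers, averaged 33.5 ± 3.85 FPKM in Non-target and 44.9 ± 4.14 in RHBDD2-CKO, a fold change of 0.42 (SE 0.11, adjusted p = 0.00781), and was not called in the other 3 clones. ZNF428 averaged 33.0 ± 4.05 in Non-target and fell in C9orf89-CKO to 23.2 ± 1.67 (-0.50, SE 0.15, adjusted p = 0.0281), with 27.6% of its exon bases overlapped by SRRM5 on the opposite strand. ZNF358 and ZNF581 averaged 22.0 ± 5.70 and 20.1 ± 2.20 in Non-target and were called in no clone. ZNF579 fell from 18 ± 2.35 to 12.8 ± 1.22 in C9orf89-CKO and to 12.2 ± 1.46 in RHBDD2-CKO. ZNF57 of sub-cluster 1 was 2.51 ± 0.666 in Non-target and 1.57 ± 0.287 in RHBDD2-CKO, at an adjusted p of 0.0484, a call that was lost in 17 of 25 other settings. The RNA kit did not keep the strand, so reads of overlapping genes on opposite strands cannot be told apart.

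The medians were also taken by level. Among 63 tested genes with a mean under 1 FPKM they were -0.54, -0.76, -0.68 and 0.68 in the C9orf89, MAGI2, MLPH and RHBDD2 clones, where other genes of that level had 0.1, 0.24, 0.16 and 0.09. All 10 genes that passed the limit through a single group are in this class, and the other 53 had -0.45, -0.69, -0.6 and 0.66. Among 39 genes of 2 to 5 FPKM the medians were -0.29, -0.38, -0.38 and 0.34, and other genes had 0.02, 0.01, 0.01 and 0.04. The 16 genes of 5 FPKM or more had -0.29, -0.02, -0.17 and -0.18.

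Base composition moved with the shift. The exons of the 176 genes had a median GC content of 42.4%, against 48.6% in all tested genes and 60.5% in the other genes of chromosome 19. In the lowest of 5 equal classes of GC content the 68 zinc finger genes had medians of -0.42, -0.59, -0.58 and 0.54, and 3166 other genes had 0.03, -0.06, -0.04 and 0.10. In the highest class the 19 zinc finger genes had -0.20, 0.09, -0.04 and -0.12, and other genes had -0.04, 0.08, 0.08 and -0.10. Other genes of like GC content therefore had medians within 0.1 of 0 in all 5 classes. The part of base composition in the shift was not tested. The 19 genes that switched had a median of 14 fingers and of 19 CG in the promoter window, and the other tested genes had 12 and 22.

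The machinery that KRAB zinc finger proteins use was measured in the same libraries. TRIM28, the corepressor that binds the KRAB domain, read 189, 296 and 278 FPKM in Non-target and 162, 284 and 259 in RHBDD2-CKO, with library 1 the lowest in each of the 5 groups. SETDB1 averaged 8.02 ± 0.765 in Non-target and 7.66 to 8.15 in the 4 clones. Neither was called in any clone. Of a list of 24 genes of heterochromatin and DNA methylation, 4 were higher and 2 lower in C9orf89-CKO. The counts were 3 and 4 in MAGI2-CKO, 2 and 4 in MLPH-CKO and 2 and 5 in RHBDD2-CKO. In the same order, 26.0%, 36.1%, 30.1% and 34.1% of all tested genes were called in either direction. The called share of the list was larger in no clone. Of these 26 calls, 11 were lost in at least 1 other setting.

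The 2 largest changes in that list were in RHBDD2-CKO. MPHOSPH8, which encodes a subunit of the HUSH silencing complex that binds repressive chromatin (chr13:19633681-19673459, plus strand), read 13.2, 8.55 and 10.1 FPKM in Non-target and 1.78, 1.28 and 1.60 in RHBDD2-CKO. It averaged 10.4, 9.76 and 8.49 in the C9orf89, MAGI2 and MLPH clones. RHBDD2-CKO lay below all other libraries, and the fold change was -2.69 (SE 0.20, adjusted p = 8.66e-07). MORC2, an ATPase that works with HUSH (chr22:30925130-30968298, minus strand), read 10.4, 9.5 and 9.93 FPKM in Non-target and 33.4, 31.7 and 31.6 in RHBDD2-CKO, a fold change of 1.69 (SE 0.06, adjusted p = 9.98e-10). It also rose in the C9orf89, MAGI2 and MLPH clones, by 0.45, 0.53 and 0.28. The other HUSH subunits changed less in RHBDD2-CKO, with 0.23 for FAM208A (adjusted p = 0.0127) and 0.17 for PPHLN1 (adjusted p = 0.0593). The 20 tested genes nearest to MPHOSPH8 had a median of 0.14 in RHBDD2-CKO, with 5 higher and 2 lower, and those nearest to MORC2 had 0.25, with 9 higher and 2 lower, where 17.4% of all tested genes were higher and 16.7% lower. The share of higher genes around MORC2 was thus over that of all genes. The part of these changes in the levels of the zinc finger genes was not tested.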

How the data were processed

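RNA of 15 libraries (5 clones, 3 wells each) was sequenced by the authors on a NovaSeq instrument after NEBNext Ultra preparation. The submitters' processing notes name HISAT2 2.0.5, featureCounts 1.5.0-p3 and DESeq2. The genome build, annotation and unit are not given in the sources used here. The authors deposited 1 value per gene and library with no unit named, and the values were read as FPKM because each value times the GENCODE v29 exon length was a whole multiple of a step per library (within 0.02), which gave 15517856 to 19489918 fragments per library. This number limits the precision of low genes, and intervals were not computed from it. The zinc finger genes and all lists were chosen with earlier results of these data known.

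Genes with at least 0.5 FPKM in 3 libraries were tested with limma 3.58.1 (lmFit, eBayes with trend) on log2(FPKM + 0.1) over all groups, with Benjamini-Hochberg adjustment over 16175 genes per comparison. Fold changes on this scale understate changes of low genes. The fit was tried on simulated data, but the outcome is not given here and is no support for the calls. Fragments of sequence shared between transcripts were found as stretches of 31 bases. Named genes were those on in a group and off in another, the 5 most abundant, the 2 largest rises and falls per clone among separated genes of at least 1 FPKM, the 2 that set each group apart most, ZNF274 and the 24 machinery genes. Promoters came from RefSeq GRCh38.p14 for 217 genes. Other pseudocounts, filters, quantile normalization, voom, the fit without the trend, a replicate block, other on and off limits and fits without single libraries were tried.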

Additional observations from a re-analysis of the deposited data

Results flagged for a closer look

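Genes called in opposite directions in a pair of clones, with the difference between the clones itself past the threshold of limma, all involved RHBDD2-CKO. There were 42 such genes of 176 between C9orf89-CKO and RHBDD2-CKO, where 2.29% of all tested genes did the same. Between MAGI2-CKO and RHBDD2-CKO there were 63 (background 4.43%), and between MLPH-CKO and RHBDD2-CKO there were 65 (3.49%). All of these were higher in RHBDD2-CKO. Without the genes that reached 0.5 FPKM in a single group the counts were 40, 61 and 60 of 166, and without the libraries numbered 1 they were 21, 43 and 34 of 163, of which all but 1 of the 43 were higher in RHBDD2-CKO. The 166 still hold genes that needed RHBDD2-CKO to pass the limit on low values, such as ZNF382 and ZNF880. The comparisons share the Non-target libraries.

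Of the genes named above, ZNF329 differed by 3.21, 5.25 and 5.20 on the log2 scale between RHBDD2-CKO and C9orf89-CKO, MAGI2-CKO and MLPH-CKO. ZNF28 differed by 4.63, 4.86 and 3.53 and ZNF83 by 3.52, 3.47 and 3.14 in the same order. ZNF426 differed by 1.66, 2.05 and 4.57. For MAGI2-CKO and MLPH-CKO the difference was 3.42 and 3.22 in ZNF233, 2.80 and 2.69 in ZNF404, and 1.34 and 1.36 in ZNF274, the gene for a protein that binds zinc finger genes. ZNF880 met the rule in MAGI2-CKO alone, with a difference of 3.83. ZNF83 and ZNF233 passed the limit on low values through RHBDD2-CKO alone, so their values are no support. ZNF880 would not have passed it without RHBDD2-CKO, where it is high, so its value is no support either. Without the libraries numbered 1, ZNF404 was no longer called in MAGI2-CKO (-0.83, adjusted p = 0.0832 by limma) or MLPH-CKO (-0.72, adjusted p = 0.13), nor ZNF28 in RHBDD2-CKO (0.65, adjusted p = 0.15). Of 25 other settings, the ZNF404 call was lost in 18 for MLPH-CKO and in 4 for MAGI2-CKO. The call of ZNF28 in RHBDD2-CKO was lost in 9 of 25.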

How the results depend on the processing

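No named change reversed its sign in any setting. Of 80 called changes of named zinc finger genes, 60 passed in all settings that tested them and 20 failed in at least 1. Among the 20 were ZNF404 in MLPH-CKO, which failed in 18 of 25, and ZNF57 in RHBDD2-CKO, which failed in 17 of 25. Of 26 called changes of the machinery genes, 15 passed in all settings and 11 failed in at least 1, among them CHD3 in MLPH-CKO, which failed in 14 of 25. Leaving out each library in turn gave 75 to 96 called genes in RHBDD2-CKO (96 with all), 63 to 75 in C9orf89-CKO (73), 73 to 104 in MLPH-CKO (101) and 83 to 107 in MAGI2-CKO (105). Genes that set a group apart ranged from 0 to 3 for Non-target (1 without its library 1 and 0 without its library 2 or 3), 66 to 84 for RHBDD2-CKO, 4 to 5 for MLPH-CKO, 7 to 10 for MAGI2-CKO and stayed at 1 for C9orf89-CKO. The 2 counts of genes with a single deviating group stayed at 1, and the 19 switching genes became 19 to 20.

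With a mean of at least 1 FPKM, 113 genes were tested, fewer than the 176, and 45, 65, 63 and 54 were called in the C9orf89, MAGI2, MLPH and RHBDD2 clones, while 0 set Non-target apart, 1 MAGI2-CKO and 47 RHBDD2-CKO. Without a filter 13 genes set Non-target apart, and with a pseudocount of 0.01 it was 1. Quantile normalization and the fit without the trend each gave 11 for MAGI2-CKO, and the latter gave 2 for C9orf89-CKO. Without the libraries numbered 1, chosen after seeing the data, 67 were called in MLPH-CKO and 0 set Non-target apart, and the opposite calls with RHBDD2-CKO fell to 21, 43 and 34. With off under 0.05 FPKM no gene was on in a single group, and with on from 1 FPKM 0 were on in a single group, 0 off in a single group and 10 switched. The cause was not tested.

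A fit with a replicate block called 82, 111, 115 and 107 genes, against 73, 105, 101 and 96 in the main fit. Replicates of the same number correlated with a median of 0.0856 over 30 pairs, of which 12 were over 0.1, and those of different numbers with -0.0887 over 60 pairs, of which 2 were over 0.1. Pairs of the same number ranged from 0.00103 to 0.312, and those of different numbers from -0.21 to 0.127. Libraries of the same number thus shared a small part of their spread. The main fit did not take the numbers to pair the samples, so its p-values leave this shared part out. At 0 to 10 fragments per library, low values of silent genes carry little precision.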
